A study of Mus musculus with 2 samples.

Results

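The Polycomb repressive complex genes described here are 10 genes: Ezh1, Ezh2, Eed, Suz12 and Jarid2 of Polycomb repressive complex 2 (PRC2), and Ring1, Rnf2, Bmi1, Pcgf1 and Pcgf6 of Polycomb repressive complex 1 (PRC1). They were taken by gene symbol from a table of 36227 Ensembl genes, and all 10 were found in it with counts. RNA was sequenced from mature mouse oocytes of the MII stage (the arrest in metaphase of meiosis II), which ICR females had shed by natural ovulation, no other treatment being labelled. The young pool came from females of 3 months and the aged pool from females of 12 months. Each was made of 18 oocytes lysed in 1 tube, 3 from each of 6 females, so that 1 library stands for each age and the females within a pool cannot be told apart. No difference below has a replicate check, no p-value for age was computed, and every interval covers counting error only. In pooled cells, fewer cells with a transcript and less of it per cell cannot be told apart. The comparison asks how the transcripts of an oocyte differ with the age of the mother.

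Polycomb complexes keep genes silent through marks on histones. PRC2 places methyl groups on lysine 27 of histone H3 through its catalytic subunit EZH1 or EZH2, which works only together with EED and SUZ12, while PRC1 adds ubiquitin to histone H2A through RING1 or RNF2, each paired with 1 of the PCGF proteins. In the growing mouse oocyte these marks are laid down over broad regions, and part of the histone H3 lysine 27 methylation is passed to the embryo, where it keeps some maternal alleles silent. Ezhip, also listed as AU022751, encodes an inhibitor of PRC2 that is abundant in the germ line.

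The young pool held 19475110 counts and the aged pool 18597656, and a count of 0 allowed up to 0.154 and 0.161 CPM, the unit of counts scaled to the library total. All 12 oocyte markers had counts in both libraries, but against the Polycomb genes described below they were mostly lower in the aged pool. They summed to 181326 CPM in the young pool and 102713 CPM in the aged one, 1.77-fold less, with a median log2 ratio of −0.56, 4 of 12 at least 2-fold lower and 2 at least 2-fold higher (over all genes above the floor described below, 10.6% and 27.9%). Most of this sum was Gdf9 (1891007 and 795892 counts) and H1foo (1041964 and 730820). After centring on the median gene, 5 were lower and 0 higher, against 17.3% and 16.0% of all genes. With bins of length and GC content these were 7 and 0, against 14.9% and 13.6%. Of 18 markers of cumulus and granulosa cells, the cells that surround the oocyte, 10 had a count in the young pool and 7 in the aged one, with a summed level of 32.5 and 60.5 CPM. Of these counts, 436 and 1056 were from Cyp19a1, and the other markers summed to 10.1 and 3.76 CPM. Amh, Foxl2, Inhba, Star, Lhcgr and Amhr2 had no count in either library, Has2 and Fshr were at 0 in the young one, and Ptgs2, Cd44, Fst, Vim and Krt18 were at 0 in the aged one. Of 11 markers of blood and stroma, 2 were not matched to the table, and the list summed to 20.8 and 39.5 CPM, or to 1.23 and 0.591 CPM without Pecam1. The part of such cells, and of the lower oocyte markers, in the differences below was not tested.

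Most of the 10 genes were higher in the aged pool by library totals, as were 66.4% of all genes with enough counts for a ratio. Of the 10 genes, 9 averaged 20 counts or more across the libraries, the floor used for ratios, and Ring1 did not. Of these 9, 6 stood at least 2-fold higher in the aged pool, as did 27.9% of all 10211 genes above the floor, and none stood at least 2-fold lower, as did 10.6% of all genes. For each of the 6, the whole counting interval was beyond 2-fold, against 18.0% of all genes, and no gene of the 9 had it beyond 2-fold lower, against 6.35%. On the log2 scale the aged over young ratio had a median of 1.25 for the 9 genes and 0.43 for all genes above the floor, whose quartiles were −0.28 and 1.09. Together the 10 genes had 22633 counts in the young pool and 44959 in the aged pool, 1162 and 2417 CPM, 2.08-fold more in the aged one. The sum of the PRC2 genes was 1.98-fold higher and that of the PRC1 genes 2.34-fold higher.

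**Figure D1:**
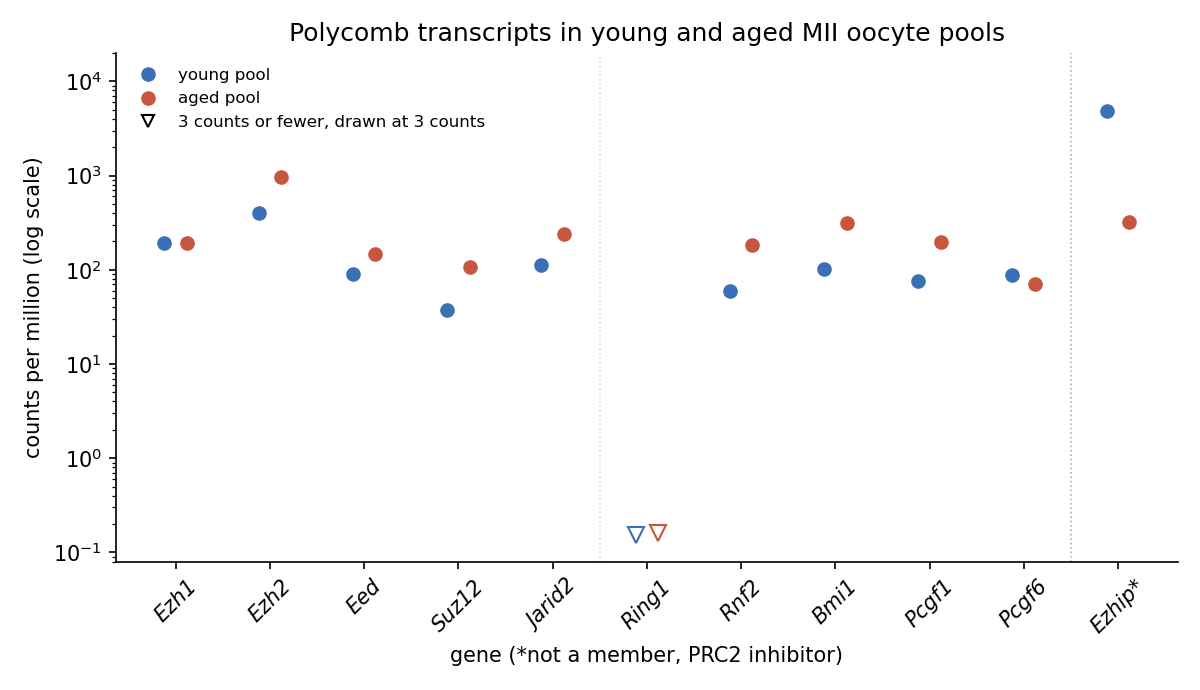
Level of each gene in CPM on a log axis, in the young (blue) and aged (red) pool, with the PRC2 genes on the left, the PRC1 genes in the middle and Ezhip, an inhibitor of PRC2 that is not one of the 10 genes, on the right. Bars are exact 95% Poisson intervals, mostly hidden by the points, and open triangles at 3 counts mark Ring1. The red point lies well above the blue one for Ezh2, Suz12, Jarid2, Rnf2, Bmi1 and Pcgf1, and far below it for Ezhip.

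The catalytic subunits of PRC2 differed from each other. Ezh2 (ENSMUSG00000029687, chromosome 6) had 7886 counts in the young pool and 17962 in the aged pool, 405 and 966 CPM. It was 2.39-fold higher in the aged pool (95% counting interval 2.32 to 2.45), a log2 ratio of 1.25. Ezh1 (ENSMUSG00000006920, chromosome 11), whose product is the less active of the catalytic pair, had 3708 and 3564 counts, 190 and 192 CPM. Its ratio was 1.01 (0.961 to 1.05), so that the libraries held the same share of it within counting error. The fold of Ezh2 was 2.37 times that of Ezh1 (2.25 to 2.50). Ezh2 thus held 68.0% of the counts of the pair in the young pool (exact Clopper-Pearson interval 67.2 to 68.9) and 83.4% in the aged one (82.9 to 83.9), and these shares do not depend on how the libraries are scaled. Per kilobase of transcript the shares were 76.2% and 88.4%. These shares are not corrected for GC content. Less the median of genes alike in transcript length and GC content, the log2 ratios were 0.37 for Ezh2 and −0.41 for Ezh1.

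The partners of the catalytic subunits were higher too, to differing degrees. Suz12 (ENSMUSG00000017548, chromosome 11), the scaffold of PRC2, had 724 and 2003 counts, 37.2 and 108 CPM, and was 2.90-fold higher in the aged pool (2.66 to 3.16). Eed (ENSMUSG00000030619, chromosome 7), which binds methylated histone H3 and stimulates the enzyme, had 1772 and 2757 counts, 91.0 and 148 CPM. Eed was 1.63-fold higher (1.53 to 1.73), below the 2-fold mark. The fold of Suz12 was 1.78 times that of Eed (1.60 to 1.97). Jarid2 (ENSMUSG00000038518, chromosome 13), which helps to bring PRC2 to its targets, had 2199 and 4468 counts, 113 and 240 CPM, a 2.13-fold higher level (2.02 to 2.24). Aebp2, the other cofactor of the same PRC2 form, had 829 and 1683 counts, also 2.13-fold more, and Jarid2 held 72.6% of the counts of these 2 genes in each library. Less the median of genes alike in transcript length and GC content, however, Jarid2 was at 0.59 on the log2 scale and Aebp2 at 0.076.

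Promoter sequences from RefSeq (build GRCm38.p6, 250 bases before to 50 after the start of the gene) were in the reference table for 9 of the 10 genes, all but Pcgf1. They are shown for the catalytic pair, which differed in ratio, and for Suz12, the PRC2 gene with the highest ratio by library totals. Less the median of genes alike in length and GC content, Jarid2 was above Suz12, at 0.59 against 0.57 on the log2 scale. Capitals mark the letters TTTGGCGC, TTTCCCGC, TTTGCCGC or TTTCGCGC, spellings of the E2F motif, and CCAAT, the box bound by NF-Y, searched on both strands. The E2F letters occur in 2.26% of 32851 promoters of this length and CCAAT in 37.4%. Those promoters have a median GC content of 52.7% and a median of 7 CpG sites. The Ezh2, Suz12 and Ezh1 windows have 64.3%, 71% and 59.3% GC, with 31, 41 and 23 CpG sites. The rate among promoters of like composition was not computed. Coordinates are those of GRCm38.p6, not of the build of the counts.
Ezh2, chr6:47594981-47595280, minus strand: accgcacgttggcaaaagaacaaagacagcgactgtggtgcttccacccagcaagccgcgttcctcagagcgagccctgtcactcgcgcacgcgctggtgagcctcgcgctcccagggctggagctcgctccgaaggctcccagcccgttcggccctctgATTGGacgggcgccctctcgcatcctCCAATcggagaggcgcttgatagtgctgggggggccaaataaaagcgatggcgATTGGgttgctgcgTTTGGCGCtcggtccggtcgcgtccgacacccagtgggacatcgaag
Ezh1, chr11:101226414-101226713, minus strand: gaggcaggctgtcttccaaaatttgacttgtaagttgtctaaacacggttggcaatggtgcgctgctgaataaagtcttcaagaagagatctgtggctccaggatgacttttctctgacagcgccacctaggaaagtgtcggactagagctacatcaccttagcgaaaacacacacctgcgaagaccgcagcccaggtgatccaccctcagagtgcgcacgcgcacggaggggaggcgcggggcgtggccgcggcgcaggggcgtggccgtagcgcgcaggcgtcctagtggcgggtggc
Suz12, chr11:79992856-79993155, plus strand: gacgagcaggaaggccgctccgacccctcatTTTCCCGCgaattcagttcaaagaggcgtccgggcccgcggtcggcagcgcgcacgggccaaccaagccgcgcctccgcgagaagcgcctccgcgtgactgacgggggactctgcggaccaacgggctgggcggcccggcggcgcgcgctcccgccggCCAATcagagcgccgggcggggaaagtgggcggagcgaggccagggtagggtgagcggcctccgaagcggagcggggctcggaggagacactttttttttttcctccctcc
The Ezh2 window holds 1 E2F match (TTTGGCGC) and 3 CCAAT matches, and the Suz12 window 1 E2F match (TTTCCCGC) and 1 CCAAT match. The Ezh1 window holds neither. Of the 9 genes with a window, Ezh2 and Suz12 are the 2 with E2F letters, against 2.26% of all promoters. CCAAT is held by 4, these and Eed and Jarid2, against 37.4% of all promoters. Jarid2 has 2 windows, each with 1 CCAAT match, whereas the shares over all are per promoter. Rnf2 and Bmi1, with the highest ratios of the 10 genes by library totals but not after the correction for length and GC content given below, hold neither. A match describes the letters only, and binding was not measured.

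Among 8 accessory and regulatory genes of PRC2, 7 were above the floor. Of these, 2 were 2-fold or more higher in the aged pool, against 27.9% of all genes, and 2 were lower by as much, against 10.6%, with a median log2 ratio of 0.18. After centring on the median gene, 0 were at least 2-fold higher and 2 lower, against 16.0% and 17.3% of all genes. With length and GC bins these were also 0 and 2, against 13.6% and 14.9%. The gene furthest from equality was Ezhip (AU022751, ENSMUSG00000073294, chromosome X), with 94923 counts in the young pool and 5932 in the aged pool, 4874 and 319 CPM. Ezhip was 15.3-fold lower in the aged pool (14.9 to 15.7), a log2 ratio of −3.93. It was the 19th most abundant gene of the young pool, taking 0.487% of its counts, and the 539th of the aged one, with 0.0319%. Of all 10211 genes above the floor, 75 had a lower ratio. Of the 19 genes at least as abundant in the young pool, Ezhip included, none had a lower ratio than Ezhip, and their median log2 ratio was −0.77. Under the alternative scalings and the correction for length and GC content the log2 ratio of Ezhip lay between −4.36 and −3.83. The counts of Ezhip were 12.0 times those of Ezh2 in the young pool and 0.330 times in the aged one, 15.2 and 0.418 times per kilobase of transcript.

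The Polycomb-like proteins PHF1, MTF2 and PHF19 link PRC2 to methylated histone H3 and to CpG-rich DNA. Mtf2 had 276 and 698 counts and was 2.65-fold higher in the aged pool (2.30 to 3.06), a log2 ratio of 1.41. That of Mtf2 was 0.98 after centring and 0.31 with length and GC bins, both short of 2-fold. Phf19 had 162 and 57 counts and was 2.71-fold lower (2.00 to 3.74). Phf1 made up most of the counts of the 3 genes in both libraries, with 97.7% in the young pool and 94.7% in the aged one, and was 1.30-fold lower. The histone-binding subunit genes Rbbp4 and Rbbp7 had log2 ratios of 0.42 and 0.18. Epop, whose product modulates PRC2, lay below the floor with 10 and 4 counts.

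**Figure D2:**
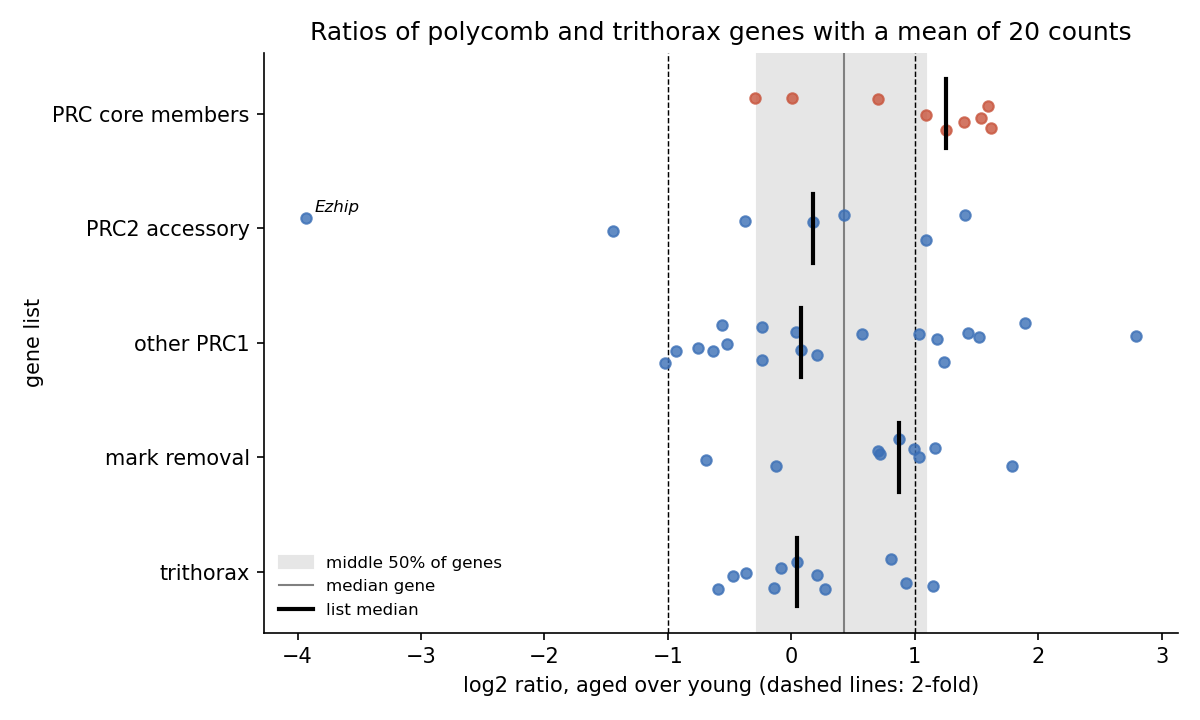
Log2 ratio of aged over young for each gene above the floor (points, shifted at random in height), by gene list, with list medians as black bars, the middle 50% of all such genes in grey and 2-fold as dashed lines. The core genes have a median of 1.25, to the right of the 0.18 of the PRC2 accessory genes and the 0.08 of the other PRC1 genes, and Ezhip lies far to the left at −3.93.

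In PRC1, the ubiquitin ligase subunit was almost entirely Rnf2 (ENSMUSG00000026484, chromosome 1). Rnf2 had 1161 counts in the young pool and 3395 in the aged pool, 59.6 and 183 CPM, and was 3.06-fold higher in the aged pool (2.86 to 3.28), the highest fold of the 10 genes by library totals. With length and GC bins the highest was Pcgf1, and Rnf2 came after Jarid2 and Suz12. Its paralogue Ring1 (ENSMUSG00000024325, chromosome 17) had 2 counts in the young pool and 0 in the aged one. Ring1 made up 0.172% of the counts of the pair in the young pool (0.0208 to 0.620), and 0 of 3395 counts in the aged one allows a share of up to 0.109% by the same kind of interval. No fold is given for Ring1, and whether its near absence reflects the oocyte or the counting of its reads was not tested. Whether the counting used strand is not stated, and Rnf2 overlaps Trmt1l on the opposite strand in the GENCODE annotation of GRCm38. Trmt1l had 153 and 53 counts, fewer than Rnf2 in both libraries and lower in the aged one.

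PCGF proteins decide which form of PRC1 is built. Bmi1 (ENSMUSG00000026739, chromosome 2), of canonical PRC1, had 2003 and 5783 counts, 103 and 311 CPM, and was 3.02-fold higher in the aged pool (2.87 to 3.18). The folds of Bmi1 and Rnf2 were alike within counting error, that of Rnf2 being 1.01 times that of Bmi1 (0.931 to 1.10). Pcgf1 (ENSMUSG00000069678, chromosome 6), of the variant complex with KDM2B and BCOR, had 1472 and 3700 counts, 75.6 and 199 CPM, and was 2.63-fold higher (2.48 to 2.80). Pcgf6 (ENSMUSG00000025050, chromosome 19), of the variant complex with MGA, L3MBTL2 and E2F6, went the other way. It had 1706 and 1327 counts, 87.6 and 71.4 CPM, and was 1.23-fold lower in the aged pool (1.14 to 1.32). By library totals Pcgf6 was the 1 gene of the 9 with a log2 ratio below 0, while 66.4% of all genes were above 0. After centring Ezh1 was below 0 too, at −0.42. The fold of Bmi1 was 3.71 times that of Pcgf6 (3.40 to 4.05), and the fold of Pcgf1 was 3.23 times that of Pcgf6 (2.94 to 3.55).

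The make-up of the PCGF counts therefore differed between the libraries, whatever their scaling, before any correction for GC content. Of the counts of all 6 PCGF genes, Pcgf6 held 31.5% in the young pool (30.3 to 32.8) and 11.8% in the aged one (11.2 to 12.4). Bmi1 held 37.0% (35.7 to 38.3) and 51.3% (50.4 to 52.2), and Pcgf1 held 27.2% (26.0 to 28.4) and 32.8% (31.9 to 33.7). Per kilobase of transcript the share of Pcgf6 was 26.5% and 9.73%, that of Bmi1 18.7% and 25.5% and that of Pcgf1 53.8% and 63.8%. None of these shares is corrected for GC content. Less the median of genes alike in length and GC content, the log2 ratios were 0.49 for Bmi1, 1.22 for Pcgf1 and −0.85 for Pcgf6. Bmi1 was thus closer to equality than Pcgf1 after this correction. Pcgf3 had 206 and 446 counts and Pcgf5 27 and 18. Pcgf2, the close paralogue of Bmi1, had 2 and 1 counts, and Bmi1 held 99.9% of the counts of this pair in the young pool and 99.98% in the aged one.

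**Figure D3:**
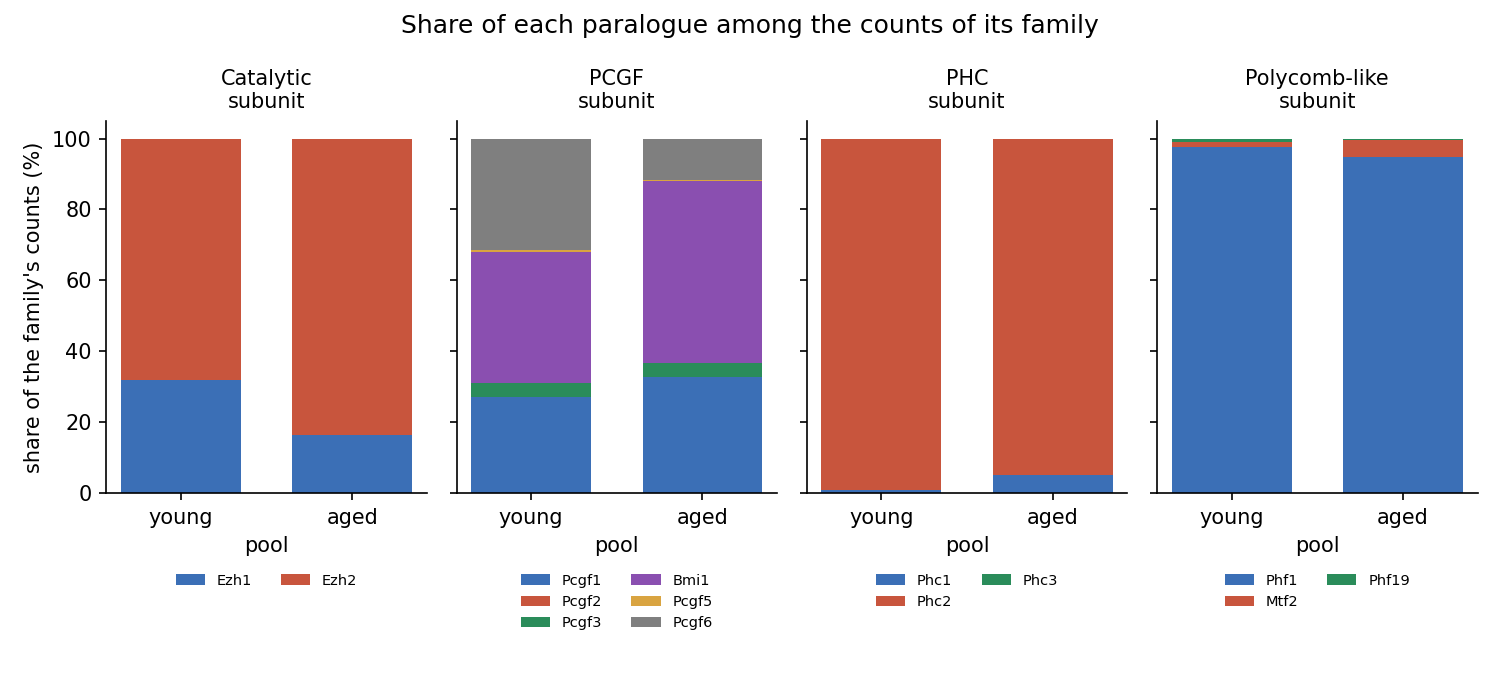
Share of each paralogue among the counts of its family, in percent, in the young and the aged pool, as stacked bars without length or GC correction, for the catalytic subunits of PRC2, the PCGF and PHC subunits of PRC1 and the Polycomb-like subunits of PRC2. Ezh2 grows from 68.0% to 83.4% of its pair and Pcgf6 shrinks from 31.5% to 11.8% of its family, while Phc2 and Phf1 hold over 94% in both libraries.

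Of 28 other PRC1 genes, 19 were above the floor, with 7 (36.8%) higher by 2-fold or more in the aged pool, against 27.9% of all genes, and 1 (5.26%) lower by as much, against 10.6%, and a median log2 ratio of 0.08. After centring, 4 were higher and 4 lower, against 16.0% and 17.3% of all genes. With length and GC bins these were 5 and 4, against 13.6% and 14.9%. Of the 7 higher by library totals, Mga (13 and 86 counts) and Fbrsl1 (14 and 36) passed the floor only through the aged pool. Fbrsl1 is outside the rule for named genes. The 1 lower gene, outside the rule for named genes and chosen after its values were seen, was Cbx2, which reads methylated histone H3 in canonical PRC1. Cbx2 had 19610 and 9211 counts, 2.03-fold lower in the aged pool (1.98 to 2.08), and held over 99% of the counts of Cbx2, Cbx6, Cbx7 and Cbx8 in both libraries. Among the PHC genes, whose products join PRC1 complexes into clusters, Phc1 was 3.72-fold higher (157 and 558 counts, interval 3.11 to 4.47). Phc2, with 16151 and 9959 counts, was 1.55-fold lower and still held 99.0% and 94.5% of the PHC counts.

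The genes of variant PRC1 complexes did not all follow their PCGF partner. Of the PCGF6 complex, L3mbtl2 with 348 and 282 counts and Max with 1255 and 814 counts were lower, as Pcgf6 was, at 1.18-fold and 1.47-fold. Mga, of the same complex, was 6.93-fold higher with few counts, 13 and 86 (3.84 to 13.5), and passed the floor only through the aged pool. E2f6 lay below the floor with 1 and 0 counts. Auts2, found with PCGF3 and PCGF5, had 662 and 1812 counts and was 2.87-fold higher (2.62 to 3.14). Kdm2b, which leads the PCGF1 complex to CpG islands, had 55 and 124 counts and was 2.36-fold higher (1.71 to 3.31). The log2 ratio of Kdm2b was 0.81 after centring, short of 2-fold, and 1.04 with length and GC bins, beyond it. Bcor, of the same complex, had 21 and 41 counts, 2.04-fold higher (1.18 to 3.64) and 0.61 on the log2 scale after centring. Of the other PRC1 genes, Bcorl1 (200 and 113 counts) and Fbrs (152 and 76), chosen after their values were seen, were 1.69-fold and 1.91-fold lower. Rybp, a stimulator of variant PRC1, lay below the floor with 4 and 6 counts, whereas its paralogue Yaf2 had 1619 and 1588 counts and held 99.8% and 99.6% of the pair. As for Ring1, whether the near absence of Rybp and E2f6 reflects the oocyte or the counting of their reads was not tested. Cbx3 had no count in either library.

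The genes that remove or oppose the Polycomb marks numbered 9, all above the floor. Of these, 3 (33.3%) were 2-fold or more higher in the aged pool, near the 27.9% of all genes, and none was lower by as much, against 10.6%. The median log2 ratio of 0.88 was −0.058 with length and GC bins. Of the 9, 1, Usp3, was still at least 2-fold higher after centring, against 16.0% of all genes, or with these bins, against 13.6%. After centring 1 was at least 2-fold lower, against 17.3%, and with these bins 0, against 14.9%. Usp3, a deubiquitinase of histone H2A, had 275 and 909 counts and was 3.46-fold higher (3.02 to 3.98). Asxl1, the partner of the deubiquitinase BAP1, was 2.24-fold higher (2.06 to 2.44), and Bap1 itself 1.65-fold higher (1.55 to 1.74). The demethylases of histone H3 lysine 27 differed in direction. Kdm6a had 889 and 1735 counts, 2.04-fold more in the aged pool (1.88 to 2.22), and Kdm6b had 3020 and 1791 counts, 1.61-fold less (1.52 to 1.71). The fold of Kdm6a was 3.29 times that of Kdm6b (2.98 to 3.64). The GC content of their transcripts is 42.5% and 59.6%, and with length and GC bins the log2 ratios were 0.11 for Kdm6a and −0.31 for Kdm6b, both within 2-fold.

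Levels of different genes can be compared only per length. Per kilobase of the longest coding transcript, Ezh2 was the highest of the 10 genes in both libraries with 145 and 347 RPKM (CPM per kilobase), followed by Pcgf1 with 82.3 and 217 RPKM. The third place went from Ezh1 in the young pool, with 45.3 RPKM, to Bmi1 in the aged one, with 86.5 RPKM. Eed came next in the young pool and after Bmi1 in the aged one, with 44.0 and 71.7 RPKM. Suz12 was the lowest but for Ring1 in both, with 8.50 and 24.6 RPKM. This order depends on the transcript taken as the length of the gene. With the median length of the coding transcripts in its place, Bmi1 had 167 and 504 RPKM, second after Ezh2 (169 RPKM) in the young pool and first in the aged one, and Suz12 was again the lowest but for Ring1.

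How many of the genes lay beyond 2-fold depended on the scaling. After centring on the median gene, which lowers each log2 ratio by 0.43, 3 of the 9 genes lay at or beyond 2-fold higher, namely Suz12, Rnf2 and Bmi1, against 16.0% of all genes, and none was at least 2-fold lower, against 17.3%. With TMM factors, which centre a trimmed mean of gene ratios, Pcgf1 was at least 2-fold higher too, 4 of 9 against 17.2% of all genes, and again none was lower, against 16.3%. The ratio of Ezh1 turned from 0.01 to −0.42 on centring, and the other 8 genes kept the side of 0 that they had under library totals.

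The ratio of all genes ran with the GC content of the transcript, and the Polycomb genes with the highest ratios are among those of low GC content. Suz12, Rnf2 and Bmi1 fall in the lowest of 10 equal bins of genes by GC content (27.5% to 41.8%), whose median log2 ratio was 1.04, against their own 1.53, 1.61 and 1.60. Ezh2 falls in bin 3 of these, with a median of 0.76 against its 1.25. Pcgf1 and Ezh1 share bin 6, with a median of 0.41, and had 1.40 and 0.01. When the median of genes alike in transcript length and GC content was taken off each ratio, 1 of the 9 genes, Pcgf1 at 1.22, was still at least 2-fold higher, against 13.6% of 9902 genes, and none was lower, against 14.9%. The values of Suz12, Jarid2, Rnf2, Bmi1 and Ezh2 were then 0.57, 0.59, 0.51, 0.49 and 0.37. Eed was at 0.01, Ezh1 at −0.41 and Pcgf6 at −0.85, and the median of the 9 genes was 0.49. What part base composition has in these ratios was not tested beyond this correction.

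**Figure D4:**
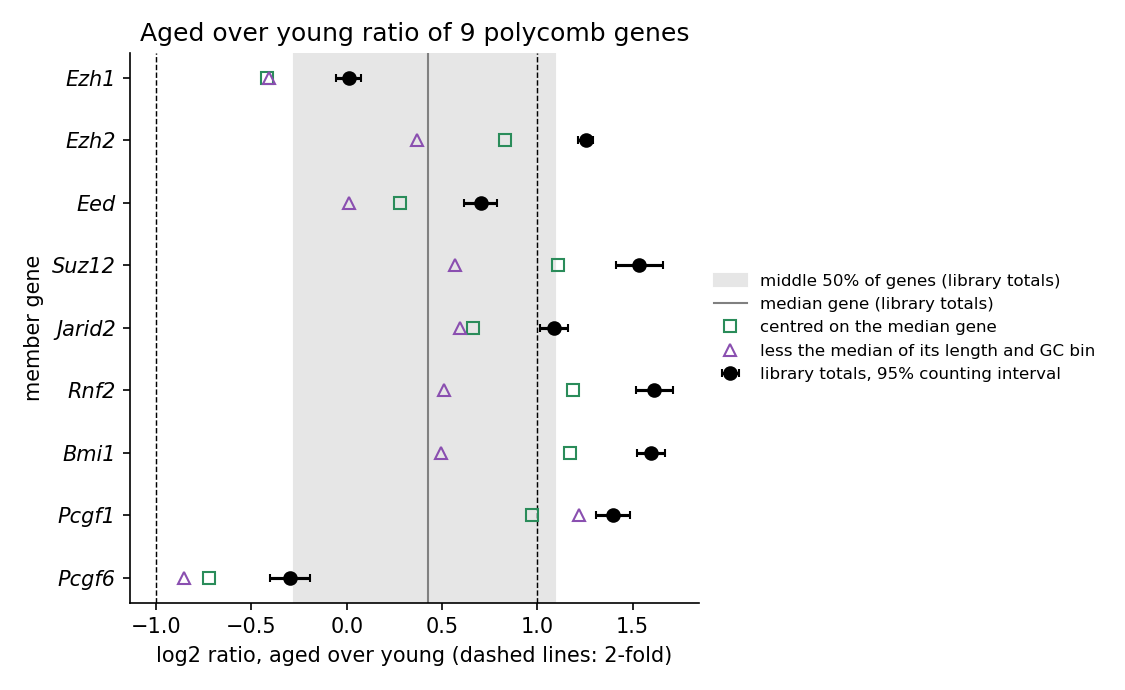
Log2 ratio of aged over young for the 9 genes above the floor, with library totals (black, with exact 95% counting intervals), after centring on the median gene (green squares) and less the median of genes in the same bin of length and GC content (purple triangles). Grey marks the middle 50% of all genes and dashed lines 2-fold. The black points of 6 genes lie right of the 2-fold line, the green squares of Suz12, Rnf2 and Bmi1 do, and of the purple triangles only that of Pcgf1 does.

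**Figure D5:**
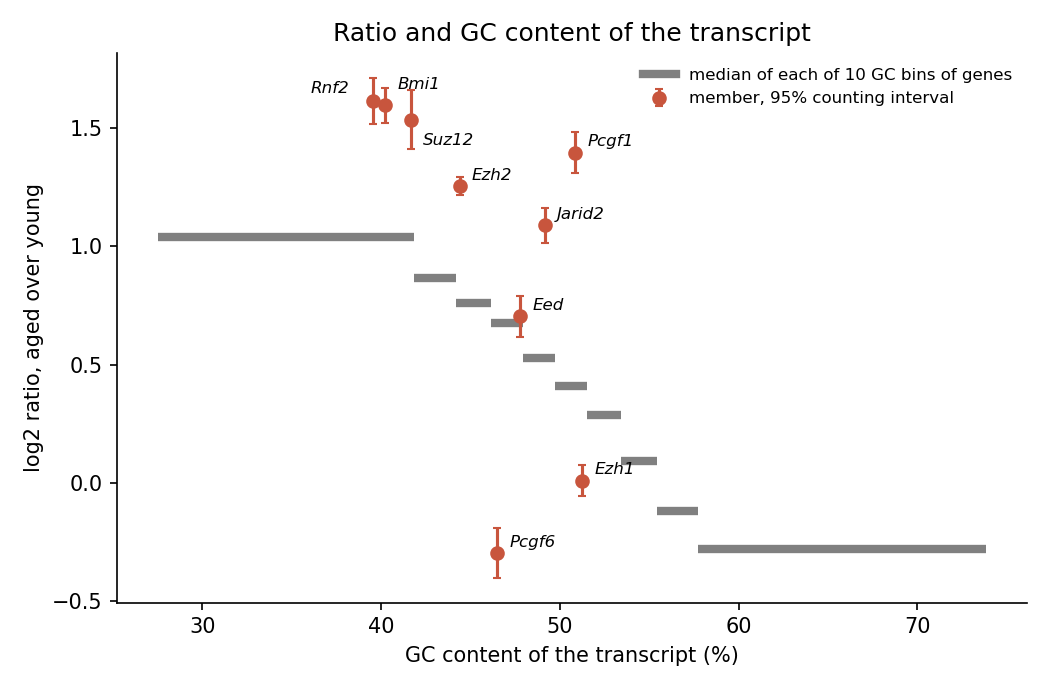
Log2 ratio of aged over young against the GC content of the transcript in percent, for the 9 genes above the floor (red, with 95% counting intervals) and as the median of each of 10 equal bins of all genes by GC content (grey bars spanning the bin). The grey bars descend from 1.04 to −0.28. Rnf2, Bmi1 and Suz12 sit above the first bar, Pcgf1 and Jarid2 well above theirs, Eed close to its bar, and Ezh1 and Pcgf6 below theirs.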

How the data were processed

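Per the labels' protocols, mRNA of pooled oocytes was reverse transcribed from a primer with 24 bases of oligo(dT), given a poly(A) tail, amplified by PCR in rounds of 18 and 14 cycles and read on the SOLiD system. The authors deposited whole-number counts per gene for 18364 of 36227 Ensembl genes, unnormalized since the totals differ between libraries. Per the submitters' processing notes the build was mm9. The aligner, counting program, annotation and use of strand were not given in the sources used here. Reads have no molecular identifiers. The authors' deposited log2 fold changes (young over aged) matched those recomputed from the counts for all 14359 genes with counts in both libraries (tolerance 1e-06). The authors' deposited z score, p-value and q-value columns compare the reads of 2 libraries and were not used.

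Symbols, lengths and GC content came from GENCODE mouse release 21, which named 93.7% of the counted rows. Length and GC content are those of the longest coding transcript, or else the longest of any type, known for 97.0% of genes above the floor. Ratios are log2 of the aged over the young count, each divided by its library total, for genes averaging 20 counts or more. For the ratio, a count of 0 was set to 3 counts. Intervals are exact 95% Clopper-Pearson intervals from the share of a gene's counts that is aged. For 2 genes, the ratio of their folds has the conditional exact interval. Genes were called by size, 2-fold, with no test. Ratios and intervals were tested on simulated counts with Poisson error only. The simulation held no spread from pooling or PCR, so it tests the calculation and not the coverage in these libraries. The members and the gene lists were chosen with earlier results of these data known. Named are the 10 genes, up to 3 of each list with the largest ratio in either direction, and Ezhip, Kdm2b, Rybp, Kdm6a, Kdm6b and Bap1. Some genes that this rule picks are not reported here. Other genes are named as paralogues or partners of these, and most genes of the lists enter only counts, sums and medians. Alternatives were other scalings, including TMM factors from edgeR 4.0.16 in R 4.3.3, bins of length and GC content, other floors, 5 added counts and other lengths. Python 3.11.15, numpy 2.4.6, pandas 2.3.3, scipy 1.17.1 and matplotlib 3.10.9 were used.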

Additional observations from a re-analysis of the deposited data

How the results depend on the processing

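With 1 library per age, spread between animals is unknown, no library could be left out, and depth limits only genes of few counts, such as Ring1, Rybp and Mga. Of the 9 Polycomb genes 6 were at least 2-fold higher with library totals (27.9% of all genes), 3 after centring on the median gene (16.0%) and 1 with length and GC bins (13.6%). The count stayed within 1.5 times under the other alternatives. None was at least 2-fold lower under any alternative run. The median log2 ratio of the 9 genes, 1.25, became 0.83 with centring, 0.88 with TMM, 0.97 with totals without the 100 most abundant genes and 0.49 with length and GC bins. The causes of these shifts were not tested.

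In the 3 wider Polycomb lists together, 12 of the 35 genes above the floor (34.3%) were higher by 2-fold or more, against 27.9% of all genes, and 3 (8.57%) were lower by as much, against 10.6%. There were 5 and 7 with centring, against 16.0% and 17.3% of all genes, and 6 and 7 with TMM, against 17.2% and 16.3%. With length and GC bins there were 6 and 6, against 13.6% and 14.9%. When the counting interval had to lie beyond 2-fold there were 6 and 1, against 18.0% and 6.35%. Without the 100 most abundant genes there were 6 and 5, and the share over all genes was not computed. Medians follow for centring, TMM, totals without the 100 most abundant genes and length and GC bins, in this order. That of the PRC2 accessory list (0.18) became −0.25, −0.20, −0.11 and −0.35, and that of the other PRC1 genes (0.08) −0.35, −0.29, −0.21 and −0.35. The median of mark removal (0.88) became 0.45, 0.50, 0.59 and −0.058, and that of trithorax (0.05) −0.38, −0.33, −0.24 and −0.13. With no floor the PRC2 accessory median was −0.10, that of the other PRC1 genes 0.57 and that of trithorax 0.13, and with a floor of 100 counts that of the other PRC1 genes was −0.10.

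Per kilobase, Ezh2 held 76.2% and 88.4% of its pair in place of 68.0% and 83.4%. The median level of the 9 genes, 40.6 RPKM in the young and 57.0 RPKM in the aged pool, became 53.9 and 133 RPKM with the median transcript length.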

Other observations

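Trithorax genes, whose products counteract Polycomb by methylating lysine 4 of histone H3, went in both directions and mostly by less than 2-fold. Of 13 genes 11 were above the floor, with 1 at least 2-fold higher in the aged pool, against 27.9% of all genes, and none lower, against 10.6%. Their median log2 ratio was 0.05, against 0.43 for all genes, and −0.38 after centring on the median gene. Rbbp5, a subunit shared by these methyltransferases, had 85 and 180 counts and was 2.22-fold higher (1.70 to 2.91), short of 2-fold after centring (log2 ratio 0.72). Kmt2c and Kmt2d, of the enhancer methyltransferases, were 1.90-fold and 1.75-fold higher. Kmt2b, the main methyltransferase of the growing oocyte, had 15313 and 9691 counts and was 1.51-fold lower (1.47 to 1.55), and it was chosen after its values were seen. Kmt2a had 1 and 0 counts, and whether this reflects the oocyte or the counting of its reads was not tested.

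Hox genes, classic targets of Polycomb, had few counts in both libraries. Of 38 Hox genes found, 19 had no count in either pool, and 6 were above the floor. Hoxd9 had 6 and 41 counts, 7.16-fold more in the aged pool (3.02 to 20.6) and Hoxd8 had 11 and 38 (3.62-fold, 1.81 to 7.85). Both passed the floor only through the aged pool. Hoxa7, chosen after its values were seen, had 3108 and 4716 counts, 1.59-fold more. All Hox genes summed to 3187 counts in the young pool and 4964 in the aged one (1.63-fold, 1.56 to 1.71). Without Hoxa7, a gene left out after its values were seen, they summed to 79 counts in the young pool and 248 in the aged pool, 4.06 and 13.3 CPM (3.29-fold, 2.54 to 4.29). The share of the count total in such low genes is small, and whether other RNA or reads of other genes contribute to them was not tested.

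Of 17 imprinted genes, most of them silenced on the maternal allele through methylation of histone H3 lysine 27 (the list also holds Phlda2, imprinted through DNA methylation), 13 had counts and 5 were above the floor. Gab1, a signalling adaptor, had 298 and 48 counts and was 5.93-fold lower in the aged pool (4.36 to 8.22). Matn1 had 11 and 48 counts and Enc1 9 and 32, 4.57-fold and 3.72-fold higher, and both passed the floor only through the aged pool. Sall3, below the floor and chosen after its values were seen, had 23 and 0 counts.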
